A study of Arabidopsis thaliana with 12 samples.

Results

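The transcripts described here were measured on arrays from wild-type Arabidopsis thaliana and gave a signal in water but were listed at 0 on several arrays after staurosporine. Their probes were chosen by the array values themselves: a probe had to be above 0 on at least 5 of 6 water arrays and at exactly 0 on at least 2 of 6 staurosporine arrays. Of 3439 probes, 148 met this rule, and 5 of them, each paired with a left-out gene, were set aside, which leaves 143 members. Of the 143, 20 are paired with exactly 1 gene in the platform annotation and are named below, 31 are paired with several genes and 92 with none. Because the values of both groups chose the members, the difference between the groups is a description here and carries no test.

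All 12 arrays hold total RNA of the Columbia 0 ecotype. The 6 H2O arrays are from plants kept 8 h in water, and the 6 pStau arrays from plants given 4 h of water followed by 4 h of staurosporine, labelled as 25 mM at pH 5.5. The unit of this dose could not be checked. A pH is given for pStau only, and no group received that solution without staurosporine. The drug and its solution therefore cannot be told apart here. The labels name no organ and no source of the replicates, so a spread between arrays may be technical. Of 8 green tissue markers, 6 were measured (PSAN, PSBW, PSBY, PRK, LHB1B2 and CHLM), and all 6 were above 0 on every array. Their summed deposited values were 34.1 to 52.4 on the H2O arrays and 61.0 to 94.9 on the pStau arrays, and the part of this in the results was not tested. A sum rests mostly on its brightest genes, so it does not show that each marker was higher in pStau. None of 6 root markers could be read from a single-gene probe.

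Staurosporine is a microbial alkaloid that occupies the ATP site of many protein kinases and so blocks phosphorylation in a broad way. In plants, kinase cascades carry hormone, wound, pathogen and light signals to the nucleus, where they change transcription. A transcript disappears from an array when its amount drops below what the hybridisation and background correction can record, so a listed 0 marks a signal not recorded and not a proven absence. The deposited values run from 0 to 100 and were taken as linear; how that scale was made was not stated in the sources used here.

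The loss was partial for most members. Only 3 of 143 were at 0 on all 6 pStau arrays, 9 were at 0 on 5, 33 on 4, 30 on 3, and 68 stood just inside the rule with 2 zeros. Another 169 probes detected in H2O stood just outside it with 1 pStau array at 0. Every member was at 0 on at least 1 of pStau arrays 3 to 6, and 107 members were above 0 on both pStau arrays 1 and 2. The name "lost with staurosporine" therefore describes 2 or more of arrays 3 to 6 for those 107 members, and all 6 arrays for 3 members. In H2O, 113 members were above 0 on all 6 arrays and 30 were at 0 on 1 array.

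The members' zeros were spread unevenly over the pStau arrays. On pStau arrays 3 and 4, 116 and 118 members were at 0, on arrays 5 and 6 the counts were 69 and 71, and on arrays 1 and 2 they were 22 and 25. The H2O arrays held 1 to 7 zeros among the members. The most frequent pattern, in 41 members, was a 0 on pStau arrays 3 and 4 alone, followed by a 0 on arrays 3 to 6 in 24 members.

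**Figure D1:**
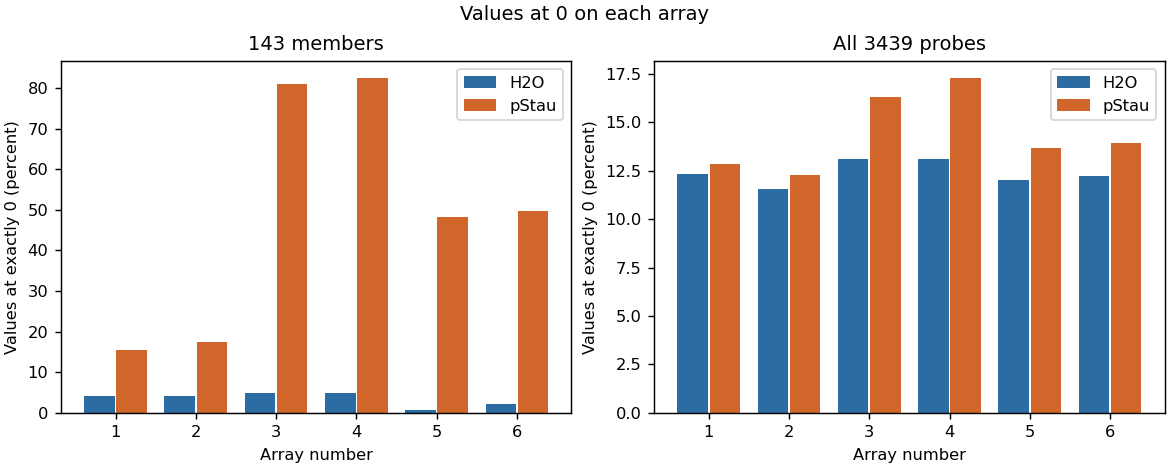
Percent of values at exactly 0 (vertical axes, of different range) on each array by array number, for the 143 members on the left and all 3439 probes on the right, with H2O in blue and pStau in orange. Among the members the share reaches 82.5% on pStau array 4, against 15.4% on pStau array 1, and over all probes the same 2 arrays hold 17.3% and 12.9%.

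The whole pStau arrays moved in the same order, which touches each result here. Their medians over all probes were 0.392 and 0.392 on arrays 1 and 2, 0.173 and 0.169 on arrays 3 and 4, and 0.228 and 0.227 on arrays 5 and 6, against 0.405 to 0.485 on the H2O arrays. Zeros made up 16.3% and 17.3% of all values on pStau arrays 3 and 4 and 11.5% to 13.9% on the other 10 arrays. Array totals did not fall in this way, at 3139 to 3541 on the pStau arrays and 3054 to 3562 on the H2O arrays. The part of the lower medians in the members' zeros was not tested. Without pStau array 3 the rule held for 93 probes, without pStau array 4 for 96, and without arrays 3 and 4 of both groups for 84. Leaving out a single pStau array cannot raise this count, which was 136 to 144 without any other 1 of them.

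Arrays with consecutive numbers in a group, called a set here, were alike: their log2 values correlated across probes with r from 0.879 to 0.988, and those of other arrays of a group with r from 0.855 to 0.935. The labels do not say whether such arrays measured the same RNA, in which case 2 zeros on 1 set would be 1 observation. Both arrays of a set were at 0 in 1 set for 80 members, in 2 sets for 35 and in all 3 for 3, while 25 members had no set with both at 0. Where 1 of pStau arrays 3 and 4 was at 0, in 42 members, the other array of the set had a median value of 0.0388, and in 7 of the 42 it was above the 25th percentile of that array's positive values. For 25 such members in arrays 1 and 2 and 36 in arrays 5 and 6, 0 exceeded that percentile. Most single zeros thus lay beside a low value on the sister array. Members were low in general, however: on pStau array 1 their median was 0.118, below that array's 25th percentile of 0.247. A value under the 25th percentile is therefore not particular to arrays beside a 0. On arrays 1 and 2, however, the 25 sister values had a median of 0.0450, below the members' medians of 0.118 and 0.126 there. This difference was not tested.

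The opposite pattern was rarer. A probe above 0 on at least 5 pStau arrays and at 0 on at least 2 H2O arrays occurred 9 times, which is 0.318% of the 2831 probes detected in pStau, against 4.98% of the 2970 probes detected in H2O for the rule itself. The gap narrowed when each array's values under the 5th percentile of its positive values were also counted as 0, to 63 and 180 probes. It also narrowed without pStau array 3 (20 and 93 probes) and without pStau array 4 (21 and 96). Leaving out a single pStau array can never raise the rule's count or lower the opposite one, so that direction was fixed in advance. Without any other single pStau array the counts were 10 to 13 and 136 to 144. Without arrays 3 and 4 of both groups they were 14 and 84, without arrays 1 and 2 they were 19 and 143, and without arrays 5 and 6 they were 13 and 116. An alternative chosen after seeing the data counted the arrays of a set once. It asked for a signal in all 3 sets of 1 group and 0 on both arrays of at least 2 sets of the other, and gave 9 and 42 probes. Since this needs at least 4 zeros, its counts are not comparable with 9 and 148. With at least 4 zeros and single arrays counted, there were 3 and 49 probes. FZL, a dynamin-like GTPase of plastid membranes, was the 1 gene with the opposite pattern. It was at 0 on H2O arrays 1 and 2 and on pStau array 1, reached 0.0536 on the other H2O arrays and lay between 0.0469 and 0.0799 on pStau arrays 2 to 6.

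Members were mostly dim in water. Their median H2O values ranged from 0.0294 to 1.15 with a median of 0.193, where all probes detected in H2O had a median of 0.529. Ranked by the median H2O value among all probes, the members covered percentiles 13.0 to 85.9 with a median of 23.5, and 17 of 143 (11.9%) were above the middle of the array. The detected probes were split by that median into 10 bins of 297. The share that met the rule was 23.6% in the dimmest bin, 4.04% to 6.73% in bins 2 to 5, 0.673% to 1.35% in bins 6 to 9 and 0% in the brightest. Level in water is a measure the rule did not use beyond its being above 0, but dim probes are also nearer to the limit of recording.

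**Figure D2:**
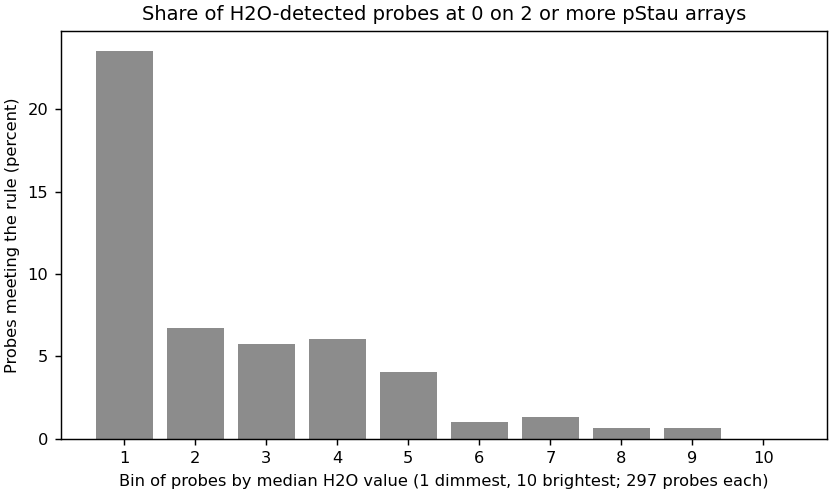
Percent of probes meeting the rule (vertical axis) in 10 bins of the 2970 probes detected in H2O, ordered by median H2O value from dimmest to brightest with 297 probes in each. The share is 23.6% in the dimmest bin and 0% in the brightest.

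AT4G05070, a member of the wound-responsive protein family of plants, was the brightest named gene. In H2O its values were 0.613 at the lowest, 0.677 at the median and 0.789 at the highest (mean 0.688 ± 0.0653, SD, n = 6). In pStau it read 0.352 and 0.258 on arrays 1 and 2 and 0 on arrays 3 to 6. The groups did not overlap, and the gene ranked at percentiles 62.3 to 76.4 within the H2O arrays and at 46.3 and 35.8 within pStau arrays 1 and 2. Among the 297 detected probes in the same bin of H2O level (bin 7), 1 was at 0 on all of pStau arrays 3 to 6, and it was this one. Bins 5, 6 and 8 held 5, 0 and 0 such probes. The rule used these zeros, so nothing is read from the counts.

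AT4G12740 encodes a homologue of MutY, the glycosylase that removes adenine mispaired with oxidised guanine in base excision repair. Its H2O values were 0.273, 0.594 and 0.734 (lowest, median and highest), and in pStau it read 0.485 and 0.369 on arrays 1 and 2, 0.0077 on array 5 and 0 on arrays 3, 4 and 6. The groups overlapped, since H2O arrays 3 and 4 were low at 0.354 and 0.273, although on each array number the pStau value was below the H2O value.

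AT5G01860, a C2H2 zinc finger protein, a type that binds nucleic acids, had H2O values of 0.341, 0.482 and 0.553 (lowest, median and highest). In pStau it was at 0 on arrays 3 and 4 and at 0.322, 0.203, 0.121 and 0.0999 on arrays 1, 2, 5 and 6. Here the groups did not overlap, and arrays 3 and 4 stood apart from the other pStau arrays. A second member probe, which the annotation pairs with this gene and another one, read 0.0921 to 0.138 in H2O, 0.0634 and 0.0166 on pStau arrays 1 and 2 and 0 on pStau arrays 3 to 6.

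AT2G21530 holds a forkhead-associated (FHA) domain, a fold that binds phosphorylated threonine in partner proteins. Its H2O values were 0.0479, 0.337 and 0.446 (lowest, median and highest), and in pStau it was at 0 on arrays 1, 3, 4 and 6 and at 0.0271 and 0.0302 on arrays 2 and 5. It is the brightest named gene with a 0 in pStau array 1, and no pStau array reached the lowest H2O array, which was array 3.

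AT5G15280, a pentatricopeptide repeat protein of the kind that binds organelle RNA, was the 1 named gene at 0 on all 6 pStau arrays, so no fold is given. Its H2O values were uneven, with 0.000622 and 0.00370 on arrays 4 and 1, 0.0580 and 0.0729 on arrays 3 and 2, and 0.157 and 0.161 on arrays 5 and 6. On H2O arrays 4 and 1 it lay under the 1st percentile of positive values, 0.0112 and 0.0179. With such values counted as 0, the gene would not meet the rule. The H2O spread (SD 93.7% of the mean, n = 6) was the widest among the 20 named genes.

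AT1G56460, a protein with a HIT-type zinc finger, read 0.0390 to 0.123 in H2O with a median of 0.0655, and in pStau only array 5 was above 0, at 0.0217. Its groups did not overlap, but even in H2O it ranked at percentile 14.3 of all probes.

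AT2G27630 is related to ubiquitin carboxyl-terminal hydrolases, which remove ubiquitin from proteins, and had H2O values of 0.224, 0.319 and 0.384 (lowest, median and highest). In pStau it was at 0.192 and 0.201 on arrays 1 and 2, at 0.0492 and 0.0265 on arrays 3 and 6, and at 0 on arrays 4 and 5, so the groups did not overlap. AT3G26730, a RING-type protein, a class of ubiquitin ligases, read 0.0621 to 0.183 in H2O and was at 0 on every pStau array except array 2, at 0.0709. That array lay above the lowest H2O array, which also had number 2.

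AT1G65370, a protein with a TRAF-like domain, showed disagreement within a set. Its H2O values were 0.226, 0.325 and 0.479 (lowest, median and highest), and its pStau values were 0.289, 0.237 and 0.297 on arrays 1 to 3, 0 on arrays 4 and 5 and 0.0461 on array 6. On each array number the pStau value was below the H2O value, but the groups overlapped across numbers, and pStau array 3 read 0.297 while the sister array 4 listed it at 0.

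AT2G48130 encodes a lipid transfer protein tied to the membrane by a glycosyl-phosphatidylinositol anchor, a family linked to the deposition of suberin and cutin. It read 0.166, 0.246 and 0.273 in H2O (lowest, median and highest), and 0.158, 0.177, 0.0436 and 0.0613 on pStau arrays 1, 2, 5 and 6, with 0 on arrays 3 and 4. The groups overlapped by a small margin, at 0.177 in pStau against 0.166 in H2O, and on each array number the pStau value was the lower. AT1G58230, a BEACH domain protein of a family in membrane traffic, had H2O values of 0.0153, 0.140 and 0.176 and pStau values of 0.170, 0.0425, 0, 0, 0.0232 and 0.0401 on arrays 1 to 6. On array 1 the groups read nearly the same, 0.176 and 0.170, and on array 2 the pStau value was the higher.

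No role is given here for the other 9 named genes. AT4G37420 and AT1G13970 were the steadiest of the 20 in water. AT4G37420 read 0.407, 0.438 and 0.482 in H2O (lowest, median and highest; SD 6.52% of the mean, n = 6), 0.175 and 0.234 on pStau arrays 1 and 2 and 0 on pStau arrays 3 to 6. AT1G13970 read 0.342, 0.367 and 0.417 in H2O (SD 8.35% of the mean, n = 6), 0.247, 0.240 and 0.0184 on pStau arrays 1 to 3 and 0 on arrays 4 to 6. In neither gene did the groups overlap, and both had pStau arrays 1 and 2 between the H2O values and 0.

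**Figure D3:**
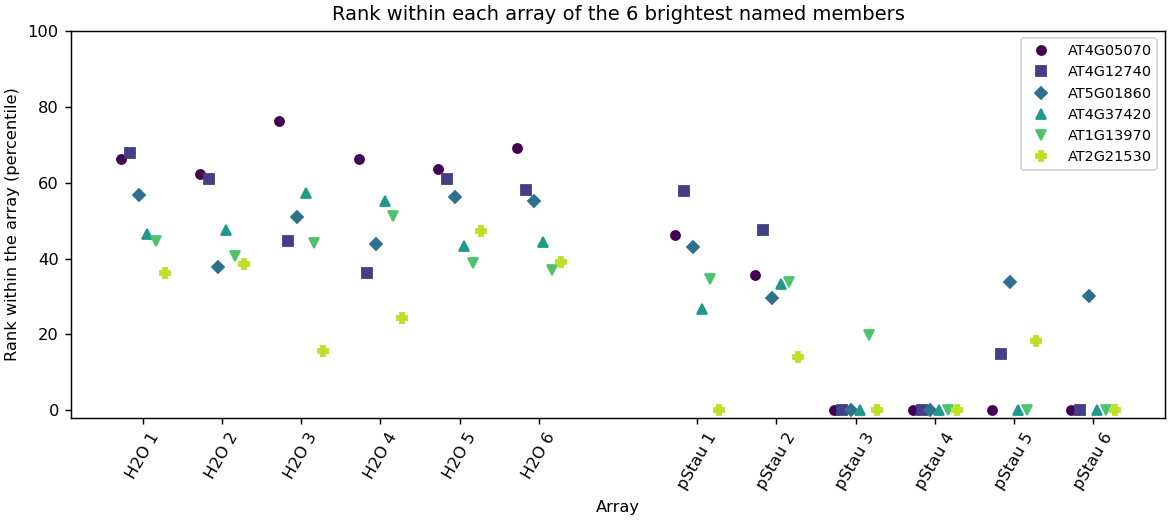
Rank within the array as a percentile (vertical axis, 0 for values at 0) of the 6 brightest named members on each of the 6 H2O and 6 pStau arrays (horizontal axis), shifted sideways so that points can be told apart. AT4G05070 lies at 62.3 to 76.4 on the H2O arrays, at 46.3 and 35.8 on pStau arrays 1 and 2 and at 0 on pStau arrays 3 to 6.

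The other 7 were dim, with median H2O values from 0.0603 to 0.158. AT4G05030, AT3G06870 and AT5G46560 had groups that did not overlap, with highest pStau values of 0.0623, 0.0254 and 0.0158 below lowest H2O values of 0.0768, 0.0659 and 0.0419. In AT2G06040, AT1G32160, AT4G20690 and AT2G26340 the groups overlapped. AT1G32160 was higher in pStau than in H2O on arrays 1 and 2 (0.191 and 0.0783 against 0.139 and 0.0178) and at 0 on pStau arrays 3 to 5. AT2G26340 read 0.278 and 0.250 on H2O arrays 1 and 2 and 0.161 and 0.133 on the pStau arrays of the same numbers, but no more than 0.0986 on the other H2O arrays, where the pStau arrays were all at 0. AT4G20690 read 0.0143 in H2O and 0.0170 in pStau on array 2, its lowest H2O array, and was at 0 on pStau arrays 4 to 6. AT2G06040 is the 1 named gene with an H2O array at 0, array 6.

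**Figure D4:**
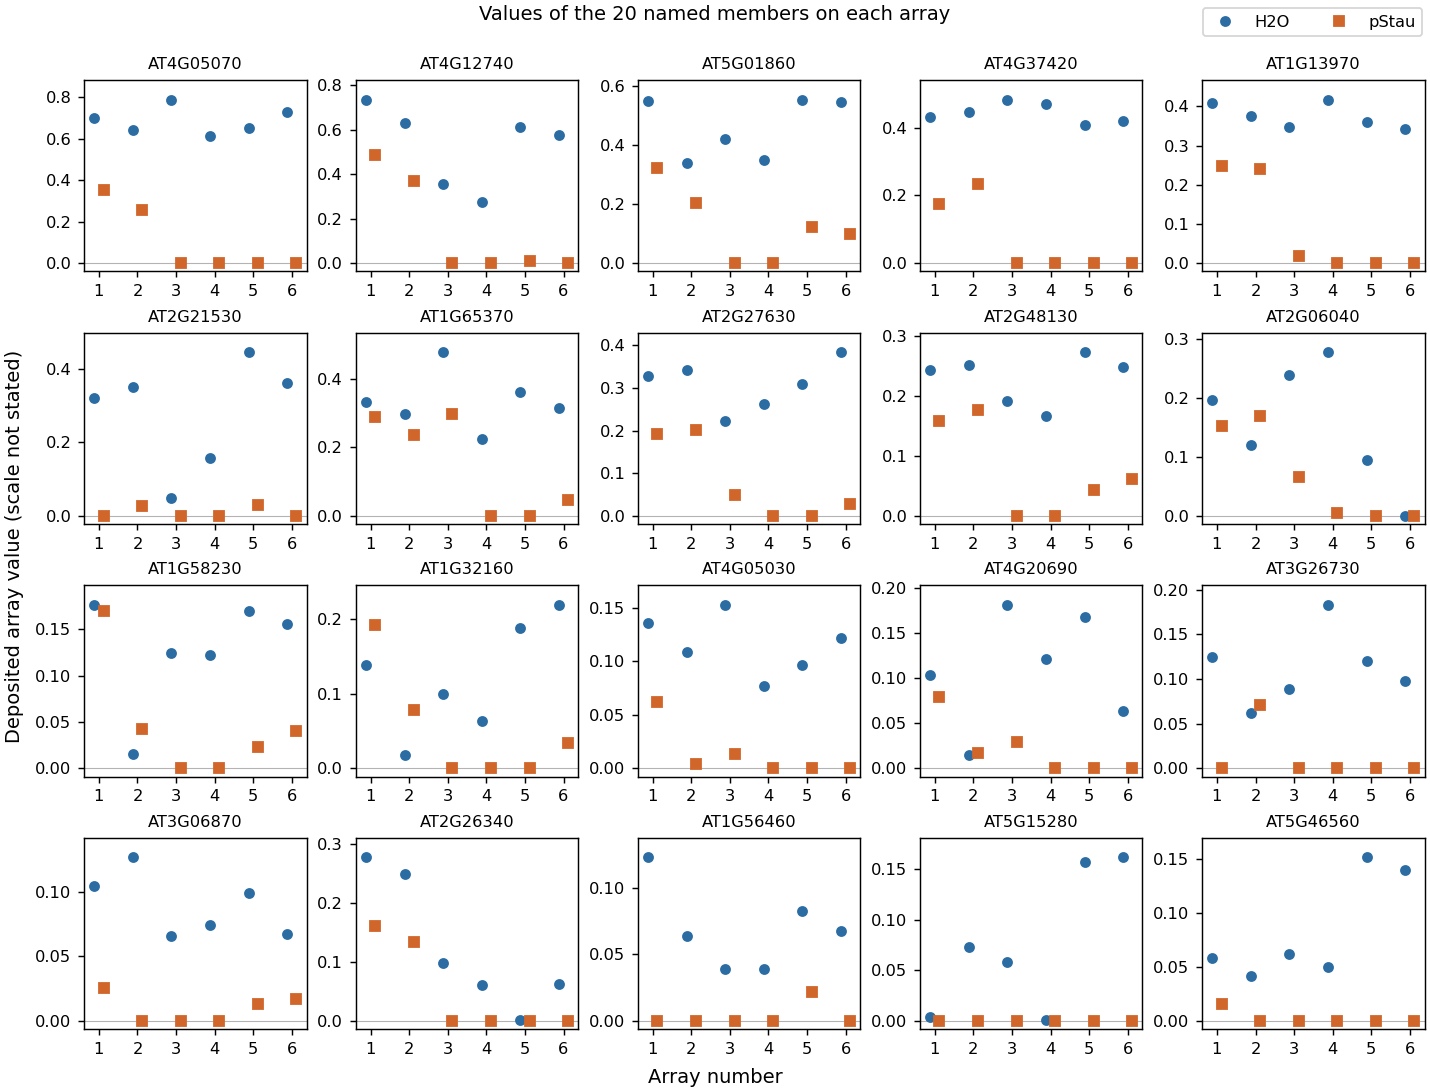
Deposited values (vertical axes, each of its own range) of the 20 named members on arrays 1 to 6 of each group (horizontal axes), with H2O as blue circles and pStau as orange squares, ordered by median H2O value. In 14 of the 20 genes pStau arrays 3 and 4 are both at 0, and in 14 pStau arrays 1 and 2 are both above 0.

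The 123 members without a single gene name included brighter probes, and 14 of the 17 members above the middle of the array were among them. The examples given here were chosen after their values were seen. The brightest member, paired with no gene, had a median H2O value of 1.15 and varied by set in both groups alike. It read 1.43, 1.84, 1.57, 0.876, 0.0811 and 0 on H2O arrays 1 to 6 and 1.76, 2.21, 1.21, 0.508, 0 and 0 on pStau arrays 1 to 6, so its zeros fell on the set where H2O was also low. The next brightest, also without a gene, read 0.306 to 1.60 on the H2O arrays, 0 on pStau arrays 1 to 4 and 0.0458 and 0.0233 on pStau arrays 5 and 6, and there the groups did not overlap. A member paired with several genes read 0 and 0.00471 on H2O arrays 3 and 4 and 0 on both pStau arrays of these numbers, while on arrays 5 and 6 it read 0.688 and 0.844 in H2O and 2.005 and 2.04 in pStau. In all, 4 of the 143 members had a higher median in pStau than in H2O, and 45 had a pStau median of 0. Meeting the rule therefore did not always go with a lower level.

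Across the 20 named genes, 11 had no overlap between the groups in the deposited values, and over all members 48 of 143 had every pStau array below every H2O array. Over the 3256 probes above 0 on at least 1 array, 20.2% did, and since the rule used these values nothing is read from the members' share. On the normalized, floored log2 values of the fit below, 5 of 20 named genes, 30 of 143 members and 302 of 3256 probes were so separated. Each overlap stated for a gene above refers to the deposited values, in which every pStau array had a lower median than every H2O array. Just outside the rule, at 0 on 1 pStau array, the single-gene probes with the lowest pStau medians were those of AT3G17950, AT4G17260, AT4G27390 and AT1G50770. Their highest pStau values were 0.0704, 0.0484, 0.0575 and 0.0737, and their highest H2O values 0.169, 0.115, 0.124 and 0.194.

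Where members could be measured without a 0, on arrays 1 and 2 of both groups, most were lower in pStau. Of the 107 members above 0 on these 4 arrays, 88 (82.2%) had a lower mean in pStau, with a median log2 ratio of deposited values of -0.68 and a range from -3.78 to 1.41. Of all 2901 H2O-detected probes above 0 there, 65.6% were lower, with a median of -0.19. These arrays entered the rule too, so the shares are set side by side without a test.

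A fit over all probes, with the arrays quantile normalized and zeros set to a floor of 0.0167, gives the background. By limma with a Benjamini-Hochberg adjusted p under 0.05, 18.8% of 3256 probes were called lower in pStau, and 61 of the 143 members and 12 of the 20 named genes were. Since the rule used the same contrast, nothing is read from these counts. The members' count came to 30 when the sets entered as a random block, 24 without arrays 3 and 4 of both groups and 15 without arrays 5 and 6. Over all tested probes, 264 of 3256, 217 of 3201 and 253 of 3220 were called lower in these 3 fits, beside 612 of 3256 in the reported fit. The log2 changes of the named genes ran from -3.76 in AT4G05070 to -0.78 in AT1G58230, with a median of -1.54 beside -0.0041 over all tested probes. Their size rests on the floor. When it was raised to the 5th percentile, AT4G05070 was at -2.42, while AT1G56460 went from -1.04 to -0.065.

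Features outside the rule were compared as descriptions. The named genes lie on all 5 chromosomes, with 5, 5, 2, 5 and 3 on chromosomes 1 to 5, where the single-gene probes matched to RefSeq count 173, 124, 130, 120 and 143. AT4G05070 and AT4G05030, both on chromosome 4, have 10 annotated genes between them in the TAIR10.1 gene order. How often other single-gene probes lie so close was not compared. Gene lengths in that annotation had a median of 2342 bp for the 20 named genes and 2145.5 bp for the 690 matched single-gene probes. The rule was met by 3.61% of single-gene probes, 3.56% of probes with several genes and 4.90% of probes with none.

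Probe numbers of the array showed closeness that the rule did not use. Of the 148 probes that met the rule, 32 (21.6%) had another such probe at the next number up or down, and 59 (39.9%) had one within 3 numbers. Among all other probes, 5.20% and 14.6% had a probe meeting the rule within these distances. Within 10 numbers the shares were 49.3% and 43.8%. What the probe number stands for on the array was not stated in the sources used here, so its part in the zeros was not tested.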

How the data were processed

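The authors deposited 1 table of array intensity values per probe and array, and the labels and files used here give no background correction, scaling, centring, dye or scanner, so these stay unknown. Values were taken as linear; array totals ran from 3054 to 3562, and the number of arrays limits the precision. Arrays were grouped by their titles, and 0 columns were unused. Members were found on the deposited values. The members, lists and some tests were chosen with earlier results of these data known.

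Probes were named from the platform annotation (692 with 1 gene, 870 with several, 1877 with none), and 690 of the 692 matched RefSeq's TAIR10.1 table by gene ID, which was used for names, gene order, length and chromosome only. The named genes are all members with 1 gene, the 4 single-gene probes just outside the rule with the lowest pStau median, and single-gene probes of the opposite pattern. The tables used here hold no product names, so other probes were not searched for relatives by protein family, and the roles stated for genes are general background knowledge.

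Array medians differed 2.87-fold, over the 10% allowed, so positive values were quantile normalized, zeros and values under the 1st percentile were set to that percentile, and log2 was taken. Left out of this fit were 183 probes with no value above 0 on any array. A two-sided limma test (version 3.58.1, R 4.3.3) compared the groups, after it had been tested on simulated data. Python 3.11.15 and matplotlib 3.10.9 were used for counts and plots. After group means were subtracted, the H2O and pStau arrays sharing a replicate number correlated with r between 0.313 and 0.541 for each of 6 numbers. The number, or the set it belongs to, may thus pair the arrays, for a reason the labels leave unstated. H2O and pStau arrays of unlike number were not compared, so number and set cannot be told apart here. The reported fit has no block, and the fit with the number as a block is an alternative. Alternatives covered the rule's thresholds, what counts as 0, other scalings and floors, blocks and left-out arrays.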

Additional observations from a re-analysis of the deposited data

Results flagged for a closer look

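Among 39 groups of 6 arrays of the 20 named genes, 4 had an end value far from the others on the floored log2 scale. The usual rate of about 1 in 20 by chance does not apply here, because zeros are tied at the floor. AT1G58230 was low on H2O array 2, at a deposited value of 0.0153, and the gap to the next array was 0.864 of the whole range. The pStau array of the same number read 0.0425, against 0.170 on pStau array 1. In AT3G26730 (pStau array 2, 0.0709), AT1G56460 (pStau array 5, 0.0217) and AT5G46560 (pStau array 1, 0.0158), a single pStau array was above 0 and the other 5 at 0, so the gap is 1.0 of the range by construction.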

How the results depend on the processing

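The count of probes meeting the rule, 148, was 317 with at least 1 pStau array at 0, 79 with at least 3 and 49 with at least 4. It was 84 without arrays 3 and 4 of both groups and 93 to 167 without single arrays. Counting consecutive arrays once, chosen after seeing the data, left 42 probes with both arrays of at least 2 pStau sets at 0 against 9 of the opposite pattern. Among the 42 were 7 named genes: AT4G05070, AT4G37420, AT3G26730, AT2G26340, AT1G56460, AT5G15280 and AT5G46560. The opposite pattern, with 9 probes, held for 2 with all 6 pStau arrays above 0, 26 with at least 4 above 0, 48 with at least 1 H2O array at 0 and 3 with at least 4. It held for 15 and 63 with values under the 1st and 5th percentile counted as 0, 19 without arrays 1 and 2 of both groups, 14 without arrays 3 and 4, and 7 to 21 without single arrays. Members called lower by limma, 61, were 104 with the table as deposited and a floor per array, which changes scaling and floor together, 30 with consecutive arrays as a random block, 24 without arrays 3 and 4, 15 without arrays 5 and 6 and 49 to 75 without single arrays. All calls, 1148, were 524 with that random block (264 lower), 483 without arrays 3 and 4 (217 lower) and 506 without arrays 5 and 6 (253 lower). Without single arrays they were 969 to 1248 (523 to 684 lower). The split of 536 higher and 612 lower was 183 and 1519 with that same pair of changes (median change of all probes -0.80 on the log2 scale) and 820 and 623 after median centring (0.026). With the replicate number as a block, 1279 probes were called (679 of 3256 lower), 66 members were called lower, and no count moved by over 1.5 times. Of 360 recomputed log2 changes of named genes, leaving out the block and trend fits that cannot move them, 329 moved by less than the spread between replicates, 30 moved by more, and that of AT1G58230 turned to 0.14 without arrays 3 and 4. The causes of these changes were not tested. Values near 0 limit what can be said of dim members.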
